A study of Mus musculus with 6 samples.

Results

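Ager, Trim72 and Frmd4a are 3 of the 55331 genes listed for mouse small intestinal crypt cells, and they hold 13 of the 61715 splicing events listed. They were chosen by name because the authors' deposited tables call both their level and their splicing. Of 9272 genes tested for both, 6 were so called (0.0647%), the others being Ptbp1, Tpm1 and H2-Bl. The level and the called splicing event therefore chose the genes, and both are given as a description. The study has 3 WT and 3 PTBP1_KO samples from C57BL/6 animals aged 60 days, and the labels do not say whether each sample is a separate mouse. The WT genotype was Ptbp1f/f and the PTBP1_KO genotype Ptbp1f/f;Vil-creER+/-, so floxed Ptbp1 was common to both and Cre was in the latter alone. Tamoxifen was given to both, at a dose of 100 mg/kg on each of 2 days, and crypt cells were taken 20 h after the last injection. Vil-creER uses villin regulatory sequence, which is active in intestinal epithelium, so it is not designed to delete Ptbp1 in other cells, and Ptbp1 was not measured by cell type here.

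PTBP1 binds pyrimidine-rich RNA and often represses the inclusion of nearby exons. A cassette exon that is included or skipped can add residues, shift the reading frame or change where translation stops. Ager encodes RAGE, the receptor for advanced glycation end products, a cell surface protein of the immunoglobulin superfamily that is best known from lung alveolar epithelium and inflammation. Trim72 encodes MG53, a tripartite motif ubiquitin ligase best known for membrane repair in striated muscle. Frmd4a encodes a FERM domain scaffold that links the polarity protein PAR3 to cytohesins, the exchange factors for the small GTPase ARF6.

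The exons that carry the splicing calls are shown first, because their lengths and places decide what each form encodes. Sequences are 5′ to 3′ on the plus strand of mm10, read from GENCODE M21 transcripts, with the cassette exon in capitals. For Ager, 100 bases of the intron before the exon and 14 bases after it are in lower case. For Trim72 and Frmd4a, the lower case letters are 30 bases of each flanking exon as joined in the spliced RNA.
Ager, 27 nt exon: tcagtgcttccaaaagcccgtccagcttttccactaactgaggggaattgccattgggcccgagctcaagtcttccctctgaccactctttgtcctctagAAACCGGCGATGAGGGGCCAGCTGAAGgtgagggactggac
Trim72, 23 nt exon: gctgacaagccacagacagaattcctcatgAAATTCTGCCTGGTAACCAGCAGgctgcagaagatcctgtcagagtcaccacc
Frmd4a, 72 nt exon: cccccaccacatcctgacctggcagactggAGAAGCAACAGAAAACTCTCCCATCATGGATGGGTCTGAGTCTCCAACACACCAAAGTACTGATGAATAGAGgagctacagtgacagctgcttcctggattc

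The Ager exon (chromosome 17, 34600351 to 34600377) is exon 9 of 11 in transcript Ager-201. It is coding, and its length is a multiple of 3. Read from the start codon of Ager-201, the form with the exon has 402 codons before the stop and the form without it 393, both ending in the last exon. The Trim72 exon (chromosome 7, 128008452 to 128008474) is exon 4 of 6 in Trim72-201, is coding, and has a length that is not a multiple of 3. With it Trim72-201 has 477 codons before the stop, and without it the frame shifts to a stop after 262 codons, 47 bases before the last exon junction. The Frmd4a exon (chromosome 2, 4607999 to 4608070) is exon 23 of 24 in Frmd4a-201 and carries that transcript's stop codon, 67 bases from the exon's start. Frmd4a-201 has 1020 codons before the stop with the exon and 1031 without it, when the stop lies in the last exon. The exons thus differ in kind: an added stretch in frame, a frame shift and a changed carboxyl end.

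Annotated transcripts cover these forms unequally. GENCODE M21 joins the Ager exon on the upstream side in 7 of 13 Ager transcripts, of which 3 join it on both sides, and skips it in 4. It includes the Frmd4a exon in 2 of 19 Frmd4a transcripts and skips it in 2. Both Trim72 transcripts include the 23 nt exon, and 0 of them have the skipping junction that the splicing table counts. The letters TCTT and CTCTCT, which are of the kind PTBP1 is known to bind, were searched in the sense of the RNA only and not on the opposite strand, and matches of the pair may overlap in part. TCTT was found at 2 places in the 100 bases before the Ager exon, 30 and 14 bases from it, and CTCTCT was not in this window. Of 2644 introns of the retained intron table with known sequence, 57.0% have TCTT in their last 100 bases and 10.2% have CTCTCT. C or T made up 61.0% of the 100 bases before the Ager exon and 80.0% of the last 30. This share was not taken for other introns. Neither set of letters is in any of the 3 exons, against 7.51%, 6.16% and 24.6% of GENCODE M21 exons of 27, 23 and 72 nt for TCTT and 0.693%, 0.849% and 2.15% for CTCTCT. The introns on both sides of the Trim72 and Frmd4a exons and the intron after the Ager exon were not searched.

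**Figure D1:**
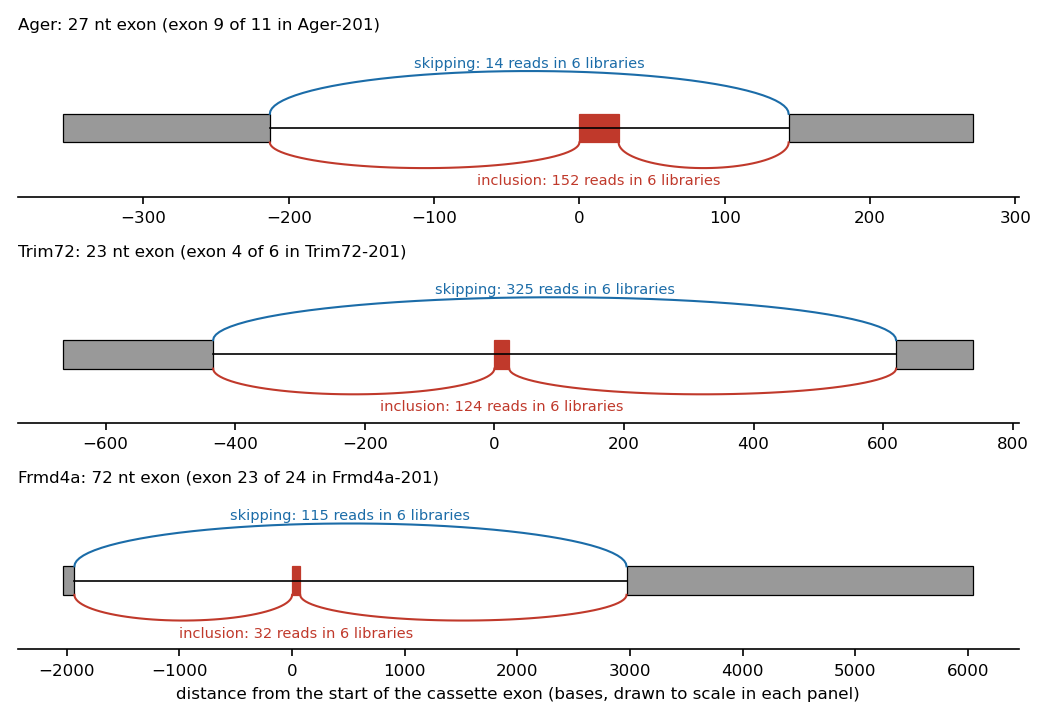
Cassette exons of Ager, Trim72 and Frmd4a (red boxes) between their flanking exons (grey boxes), drawn to scale in each panel, with the horizontal axis in bases from the start of the cassette exon. Red arcs mark inclusion and blue arcs skipping, with reads summed over 6 libraries: 152 and 14 for Ager, 124 and 325 for Trim72, and 32 and 115 for Frmd4a.

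Gene levels were compared first. The gene table holds 1 FPKM value (fragments per kilobase of transcript, scaled to the mapped fragments) for each group, so no spread between samples can be given and the depth behind it is unknown. In bulk samples, fewer cells of a type and less RNA per cell cannot be told apart. Ptbp1, the targeted gene, had 230.0 (WT) and 122.8 (PTBP1_KO) FPKM, where the value covers the whole gene.

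Trim72 and Frmd4a were higher and Ager lower in PTBP1_KO. Trim72 (ENSMUSG00000042828.12) spans 128003949 to 128011033 on the plus strand of chromosome 7. Its level was 5.50 FPKM in the WT group against 12.5 FPKM in PTBP1_KO, a log2 fold change of 1.18 in the authors' deposited table. Frmd4a (ENSMUSG00000026657.17) spans 4017717 to 4614043 on the plus strand of chromosome 2. Its level was 1.68 FPKM in the WT group against 2.86 FPKM in PTBP1_KO, a log2 fold change of 0.77 in the same table. Ager (ENSMUSG00000015452.14) spans 34597862 to 34600936 on the plus strand of chromosome 17. Its level was 2.94 FPKM in the WT group against 1.19 FPKM in PTBP1_KO, a log2 fold change of -1.30 in the authors' deposited table. All 3 have q = 0.0125 there, the smallest q it lists. They share its smallest p with other genes, 62 tested genes in all, so this q does not rank them above those. The background is 0.388% of 15460 tested genes called higher and 0.149% called lower. That contrast chose the genes, so their count is not read against these shares.

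The order of levels per length was Trim72, Ager, Frmd4a in WT and Trim72, Frmd4a, Ager in PTBP1_KO. No replicate values are given in the table, so it cannot be said which neighbours in that order differ beyond their spread. The median tested gene had 7.70 (WT) and 7.76 (PTBP1_KO) FPKM. Trim72 lay below that median in WT and above it in PTBP1_KO, while Ager and Frmd4a lay below it in both groups. By the distance in log2(FPKM + 0.1) over the 2 group values, the tested genes most like Ager were H2-T-ps (distance 0.05) and Gm49539 (0.14). Those most like Trim72 were Nts (0.22) and Mptx1 (0.25), and those most like Frmd4a were Hvcn1 (0.07) and Arhgdig (0.09). Of these 6, only Nts passed q < 0.05 in the authors' deposited table, with q = 0.0396.

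**Figure D2:**
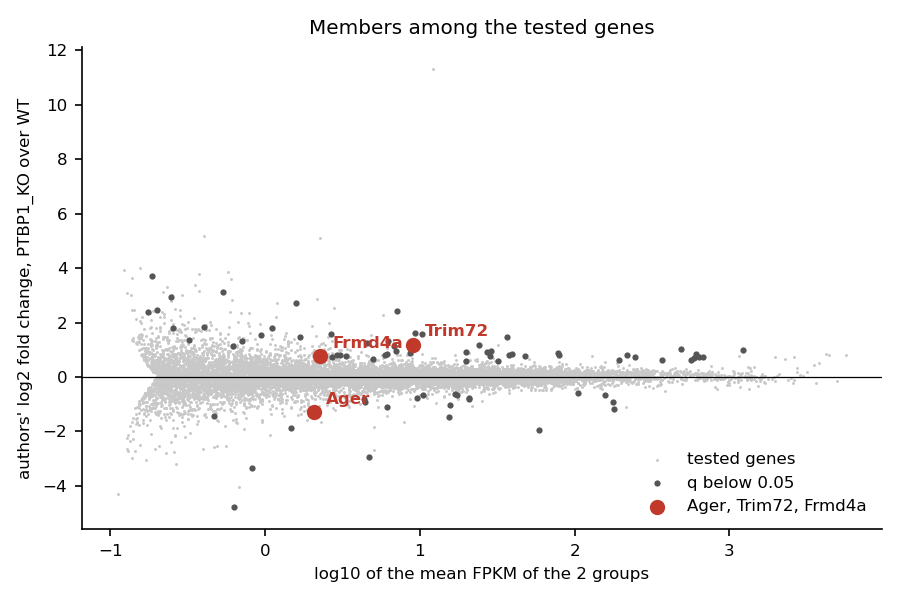
Authors' log2 fold change of PTBP1_KO over WT (vertical axis) against log10 of the mean FPKM of both groups (horizontal axis) for tested genes with a finite fold change. Grey points are all tested genes, dark points those with q below 0.05 and red points the 3 members, with Trim72 and Frmd4a above 0 and Ager below it.

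Genes beside the members on the chromosome were examined because neighbouring transcription can give reads to a gene. Within 10 kb of Ager lie 6 listed genes, of which 5 were tested and 0 called. Pbx2, which ends 461 bases before Ager, had 27.8 (WT) and 25.5 (PTBP1_KO) FPKM. Rnf5, a ubiquitin ligase gene on the minus strand 154 bases after Ager, had 94.98 and 93.1 FPKM in that order. Agpat1 had 73.1 and 69.8 FPKM, Gpsm3 1.99 and 2.39 FPKM, and Notch4 3.02 and 3.24 FPKM.

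Gm15533, an antisense gene on the minus strand (128001899 to 128005190), overlaps the 5′ part of Trim72. It had 0.872 (WT) and 1.94 (PTBP1_KO) FPKM, a log2 fold change of 1.15 with p = 0.360 in the authors' deposited table. The library kit marks strand, but whether counting used it is not given in the sources used here, so reads of Trim72 and Gm15533 cannot be told apart where they overlap. The other 3 listed genes near Trim72 were not tested by the authors, each below 0.1 FPKM in both groups. Frmd4a spans or lies near 15 listed genes. Prpf18, which encodes a splicing factor of the second step and lies 8014 bases after Frmd4a, had 12.2 and 13.3 FPKM and was the only one tested. The other 14, all inside Frmd4a, were each below 0.1 FPKM.

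Splicing of the members was read in 7 skipped exon and 6 retained intron events. The tables hold no alternative splice site or mutually exclusive exon event for these genes. Inclusion was recomputed in each library as reads for the included form over its effective length, divided by that plus the same for the skipped form. The 6 libraries stand in each table as a first set of 3 and a second of 3, without a statement of which genotype a set holds. No direction by genotype is therefore given, and no test was run over libraries. Libraries within a set have no order.

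An event counts as changed when the authors' FDR is below 0.05, the absolute inclusion difference is at least 0.1 and the mean is at least 20 reads per library. Of the 13 events, 11 had enough reads and 4 were changed. The changed ones were 3 of 6 skipped exons with enough reads, beside 1.68% of all such skipped exons, and 1 of 5 retained introns, beside 2.06%. The members were chosen for these calls, so nothing is read from the shares. In the same 4 events the inclusion levels of both sets did not overlap, beside 7.97% of skipped exons and 12.2% of retained introns in the whole tables. All 4 differences were positive, which means higher inclusion in the first set.

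The 23 nt exon of Trim72 had the most reads of the changed events, with a mean of 74.8 per library. Inclusion was 0.473, 0.341 and 0.350 in the first set, from 98, 96 and 91 reads. It was 0.023, 0 and 0.013 in the second set, from 75, 21 and 68 reads. Inclusion was at or near 0 in the second set and above 0.3 in each library of the first. The library of 21 reads had 0 inclusion reads, which allows inclusion of up to 0.126. The exact 95% intervals of single libraries did not overlap, the lowest bound in the first set being 0.249 and the highest in the second set 0.142. The authors' deposited table lists a difference of 0.376 with p and FDR of 0.

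Inclusion of this exon was below 0.5 in all 6 libraries, but the library at 0.473, with 50 inclusion and 48 skipping reads, has an exact 95% interval of 0.372 to 0.577, so the prevailing form is not settled there. In the other 5 the interval lay below 0.5. The skipped form is the one that shifts the frame and that neither annotated transcript holds. The other Trim72 exons did not behave so. The 397 nt exon (128004477 to 128004873) had between 126 and 347 reads in each library and inclusion from 0.989 to 1. The 231 nt exon (128007787 to 128008017), which lies directly before the 23 nt exon, had 97 to 343 reads and inclusion from 0.992 to 1. Both had an FDR of 1 in the authors' deposited table. For each, skipping is counted at 1 junction that 0 annotated transcripts hold. The junction that skips the 231 nt exon leaves out the 23 nt exon too. Skipping of the 231 nt exon with the 23 nt exon kept is not counted there.

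The 72 nt exon of Frmd4a was covered by fewer reads, with a mean of 24.5 per library. Inclusion was 0.291, 0.233 and 0.283 in the first set, from 21, 32 and 35 reads. It was 0, 0.017 and 0 in the second set, from 10, 39 and 10 reads. Inclusion was below 0.3 in every library, although the exact 95% interval of the library at 0.291 reaches 0.516, and the sets did not overlap. A library of 10 reads with 0 inclusion reads allows inclusion of up to 0.222, so the exact 95% intervals of single libraries do overlap, with a lowest bound of 0.114 in the first set and a highest of 0.229 in the second. The authors' deposited table lists a difference of 0.263 with FDR = 2.36e-08. The skipped form reads on into the last exon for the longer carboxyl end.

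The other Frmd4a events did not pass. The 139 nt exon (4566052 to 4566190) was included at 0.854, 1 and 1 in the first set and at 1 in each library of the second. Its lowest library held 4 reads. The 119 nt exon (4591884 to 4592002) is annotated in Frmd4a-217, a transcript marked for nonsense-mediated decay, and its inclusion was 0.042 in 1 library of the first set and 0 in the other 5. It had 12 to 27 reads per library, with a mean below 20. Both had an FDR of 1 in the authors' deposited table.

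The 27 nt exon of Ager was mostly included in every library. Inclusion was 1 in each library of the first set, from 17, 9 and 11 reads. It was 0.886, 0.881 and 0.851 in the second set, from 51, 39 and 39 reads. Skipping was seen only in the second set, with 5, 4 and 5 reads, and the second set also had the more reads. With 0 skipping reads, inclusion as low as 0.797, 0.627 and 0.692 is allowed in the libraries of the first set, and the exact 95% intervals overlapped between sets. The authors' deposited table lists a difference of 0.127 with FDR = 0.00173, and the mean was 27.7 reads.

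The changed retained intron of Ager is the interval from 34600138 to 34600494, 357 nt long, which holds the 27 nt exon with the introns on both sides. Its skipping reads are those of the same junction, again 0 in the first set and 5, 4 and 5 in the second. The 2 Ager calls therefore share their skipping reads and are not independent. Inclusion of the interval was 1 in each library of the first set, from 8, 21 and 15 reads, and 0.746, 0.550 and 0.686 in the second, from 56, 21 and 43 reads. The sets did not overlap, but with 0 of 8 skipping reads inclusion as low as 0.324 is allowed. The authors' deposited table lists a difference of 0.339 with FDR = 1.54e-05. Reads lying in the interval count as inclusion here, and this interval includes the exon itself. High inclusion therefore does not mean that all 357 nt were kept. Retention of the 213 nt intron at its start was 0.051 to 0.309 in the first set and 0.070 to 0.136 in the second. Translated from Ager-201, a form that keeps all 357 nt would stop after 334 codons, 437 bases before the last exon junction.

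The junction that enters the Ager exon from the upstream side gives a measure apart from exon body reads, because the table for the 213 nt intron before the exon (34600138 to 34600350) counts it. This junction is also found in annotated transcripts that run on into the intron after the exon, so it does not measure joining on both sides. It had 15, 9 and 17 reads in the first set and 46, 37 and 43 reads in the second. Set beside the skipping junction, 0 of 41 junction reads skipped the exon in the first set, which allows a share of up to 7.32% (exact 95% interval 0 to 8.60%). In the second set 14 of 140 did (exact 95% interval 5.58% to 16.2%), and these intervals overlap. The skipping reads are those of both Ager calls, so this measure is not independent of them. The shares of the 3 libraries of the second set were 9.80%, 9.76% and 10.4%. Single libraries of the first set, with 0 skipping reads each, allow shares of up to 20.0%, 33.3% and 17.6%. Retention of the 213 nt intron itself was 0.051, 0.309 and 0.087 in the first set and 0.136, 0.098 and 0.070 in the second, with overlapping sets and an FDR of 1 in the authors' deposited table.

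The other 4 retained intron events of Ager did not pass. The 157 nt intron (34598573 to 34598729), whose removal is annotated in 12 of 13 transcripts, was retained at 0 to 0.264 in the first set and 0.021 to 0.166 in the second, from 7 to 35 reads per library. The intervals of 195, 207 and 89 nt were listed with inclusion from 0.864 to 1 in all libraries. Their spliced forms count only 1 pair of splice sites, which 7, 0 and 1 of the 13 annotated Ager transcripts use in that order. Their high inclusion is therefore a statement on that pair of sites, not on all splicing across the interval. FDR was 0.963 for the 157 nt intron and 1 for the other 3 in the authors' deposited table.

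**Figure D3:**
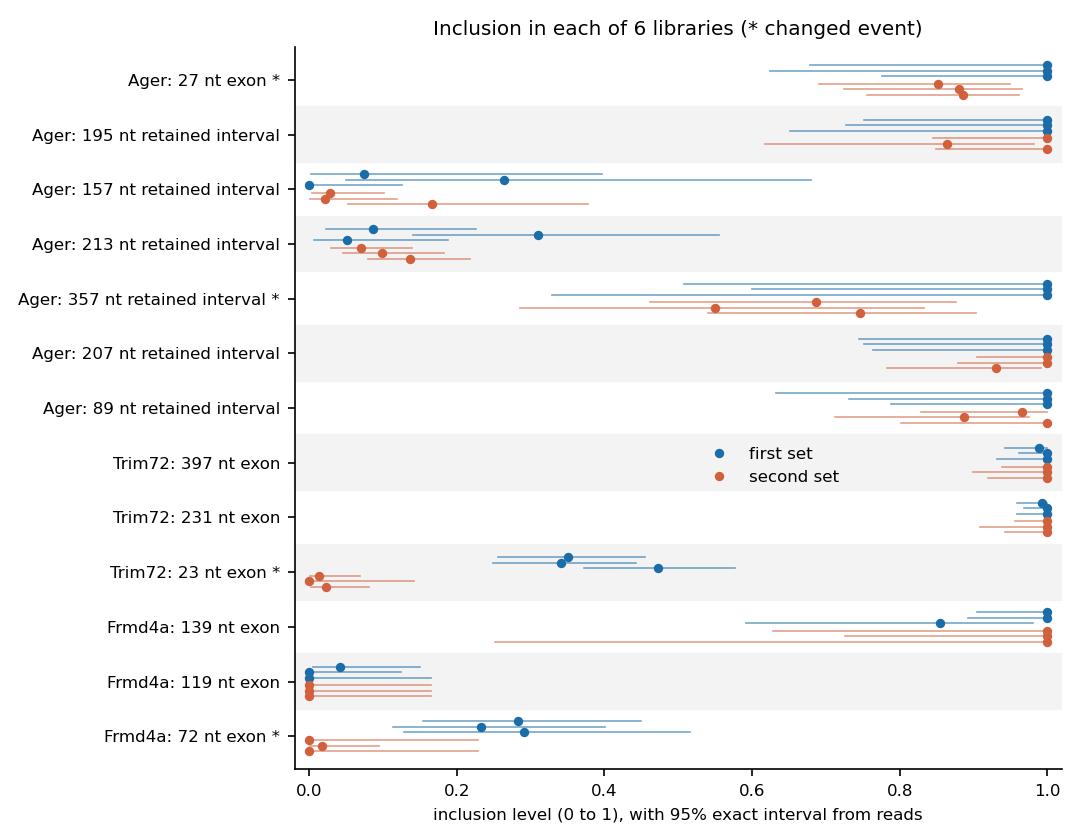
Inclusion level (horizontal axis, 0 to 1) of the 13 member events in each of 6 libraries, as points with exact 95% intervals from the read counts, blue for the first and orange for the second set of libraries. An asterisk marks the 4 changed events, where the points of both sets do not overlap, and the Trim72 exon of 23 nt is the only one of them whose intervals are also apart.

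Genes that work with each member were read from 4 lists. The median log2((PTBP1_KO + 0.1)/(WT + 0.1)) of all tested genes was 0.02, and 0.537% of them were called in either direction. Of 8 RAGE ligand genes, 5 were tested and 0 called, with a median of 0.07. Hmgb1, a nuclear protein that signals when released, had 459 (WT) and 482 (PTBP1_KO) FPKM, and S100a11, a calcium-binding protein, 269 and 285 FPKM. S100a8, S100a9 and S100b, the inflammatory and glial members, were below 0.1 FPKM in both groups. The high ligand levels and the low receptor level are on the same FPKM scale.

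Of 8 genes for RAGE signalling and shedding, 7 were tested, 1 was called higher and 0 lower, with a median of 0.09. The called gene was Egr1, an immediate early transcription factor, which rose from 2.67 to 6.39 FPKM with a log2 fold change of 1.26 and q = 0.0125 in the authors' deposited table. Adam10, a protease that sheds the RAGE ectodomain, had 33.3 (WT) and 35.5 (PTBP1_KO) FPKM. Diaph1, the formin that binds the cytoplasmic tail of RAGE, had 27.4 FPKM in both groups. Rela, a subunit of NF-κB, had 29.2 and 29.9 FPKM.

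Of 13 genes for TRIM72 partners and membrane repair, 10 were tested and 0 called, with a median of 0.07. Anxa2, an annexin that binds membranes in the presence of calcium, had 424 (WT) and 432 (PTBP1_KO) FPKM. Ptk2, the focal adhesion kinase, had 12.7 and 12.9 FPKM. Dysf and Cav3, partners of TRIM72 in muscle, were below 0.1 FPKM in both groups. Of 9 FRMD4A partners and relatives, all were tested and 0 called, with a median of 0.06. Cdh1, the epithelial cadherin, had 227 and 253 FPKM, Arf6 89.6 and 102 FPKM, Pard3, which encodes PAR3, 20.2 and 21.1 FPKM, and the paralogue Frmd4b 8.64 and 8.26 FPKM.

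**Figure D4:**
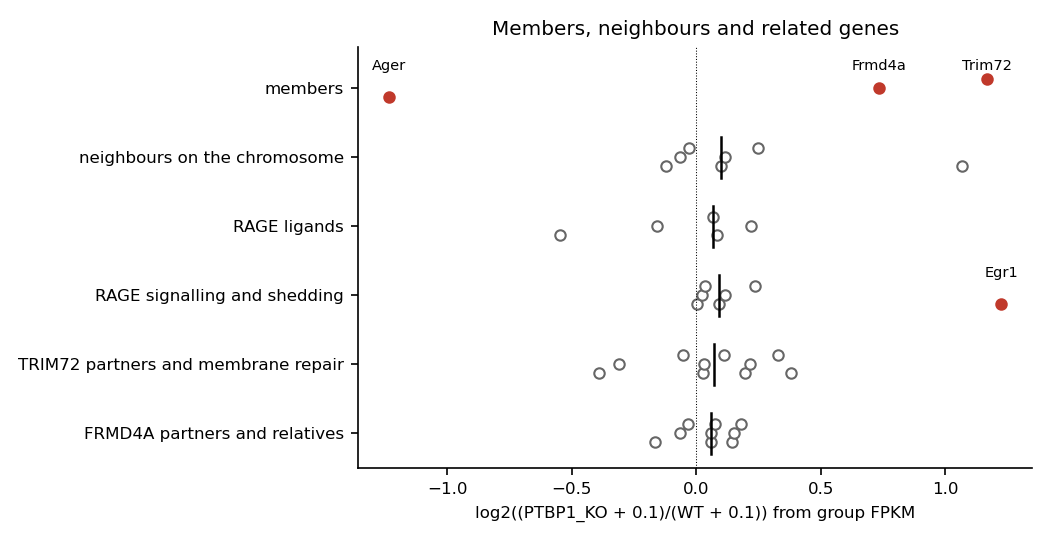
log2((PTBP1_KO + 0.1)/(WT + 0.1)) from the group FPKM values (horizontal axis) for tested genes among the members, their chromosomal neighbours and the 4 related lists. Filled points have q below 0.05, bars are list medians, and Egr1 is the only filled point outside the members.

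Some partners had a changed splicing event without a call for level. Of the listed genes with an event of enough reads, a changed event was found in 0 of 1 RAGE ligand gene, 0 of 6 genes for RAGE signalling and shedding, 2 of 6 TRIM72 partners and 1 of 6 FRMD4A partners, beside 6.61% of all genes with such an event. A gene counts if any 1 of its events changed, and Ptk2 holds 33 events, Cyth2 10 and Ube2h 5. The counts are therefore not read against that share. Cyth2, a cytohesin, had a changed 3 nt exon (chromosome 7, 45808730 to 45808732) with 677 reads per library on average. Its inclusion was 0.812, 0.814 and 0.831 in the first set and 0.572, 0.604 and 0.659 in the second, without overlap, and its difference was 0.207 with FDR of 0 in the authors' deposited table. Ptk2 had a changed 9 nt exon (chromosome 15, 73211987 to 73211995), included at 0.975, 0.917 and 0.978 in the first set and 0.686, 0.612 and 0.728 in the second. A 21 nt exon of Ptk2 (73275621 to 73275641) was included at 0.529, 0.489 and 0.511 in the first set and 0.394, 0.343 and 0.336 in the second. Ube2h, a ubiquitin-conjugating enzyme, had a difference of -0.100 with FDR = 0.0385 in the authors' deposited table, and its sets overlapped, at 0.809 to 0.922 and 0.919 to 1.

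The labelled cell type was checked against markers. All 6 intestinal epithelial markers were between 85.4 and 1340 FPKM in both groups and 0 were called. Because Trim72 is known from muscle, 6 striated muscle markers were read beside it. Their sum was 11.4 (WT) and 15.9 (PTBP1_KO) FPKM, with Myh1 at 0 in both groups, Ckm and Tnnt3 below 0.2 FPKM and 0 called. Mylpf, a myosin light chain gene and the highest of them in WT, had 7.37 and 6.18 FPKM, Acta1 2.48 and 7.22 FPKM (p = 0.229 in the authors' deposited table) and Actn2 1.41 and 2.23 FPKM. Because Ager is known from lung, 6 alveolar markers were read beside it. Sftpc, Sftpb and Sftpa1 were at 0 in both groups, and Hopx, which crypts also express, made up nearly all of the sum of 65.6 and 63.2 FPKM.

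The 6 immune markers summed to 812 (WT) and 931 (PTBP1_KO) FPKM, most of it Cd74, the invariant chain of MHC class II, with 790 and 898 FPKM. The other 5 summed to 21.8 and 33.2 FPKM. Cd8a was called higher (4.30 and 7.52 FPKM, q = 0.0125 in the authors' deposited table), and 4 of 6 had an unadjusted p below 0.05, all higher. The 4 fibroblast markers summed to 2.09 and 0.978 FPKM, with 3 at an unadjusted p below 0.05, all lower, and 0 called. Both counts stand beside 672 of all 15460 tested genes with an unadjusted p below 0.05. Smooth muscle, endothelial and neural or glial markers summed to at most 1.002 FPKM in each group with 0 called. The part of the immune, muscle and fibroblast markers in the members' levels was not tested.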

How the data were processed

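Messenger RNA of crypt cells released in 2 mM EDTA and passed through a 70 µm strainer was sequenced, per the labels' protocols. The submitters' processing notes name the build mm10 and the tools STAR 2.6.1d, Trimmomatic 0.38, bcl2fastq 2.20, Cuffdiff and Cufflinks. For each gene the authors give an FPKM for either group with a log2 fold change, a p-value and a q-value, per the file headers. The authors' test statistic, a score per the file headers, was not used. The 5 splicing tables hold reads, effective lengths, a p-value and an FDR by the authors, per the file headers. The splicing caller's version is not given in the sources used here.

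Inclusion was recomputed from reads and differed from the deposited levels by at most 0.000500. Intervals are exact (Clopper-Pearson) at 95%, rescaled by the effective lengths, and a count of 0 allows 3 reads. Both cover counting error only. No test was run here: calls are the authors' q below 0.05 and their FDR, with the limits stated beside the results. The inclusion formula was run on simulated counts drawn from the same formula, with more reads per library than the changed member events held. That run checks the code only. Coordinates are 1-based on mm10 with GENCODE M21, where 55150 of 55331 gene identifiers matched without their version. The tools were scipy 1.17.1 and pandas 2.3.3, with numpy 2.4.6, under Python 3.11.15, and figures were drawn with matplotlib 3.10.9.

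The members, lists and limits were chosen with earlier results of these data known. Named genes were the members, Ptbp1, listed genes within 10 kb of a member, list genes called or among the 2 highest by FPKM, and the 2 tested genes nearest each member in level. Other genes, and the share of Ager junction reads that skip the exon, were chosen after their values were seen. Named events were the changed ones and, for each gene and type, the one with most reads. All 13 are described.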

Additional observations from a re-analysis of the deposited data

How the results depend on the processing

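Of the 3 members called by level, 0 passed q < 0.01, since no q the authors list is below 0.0125, while 672 genes have an unadjusted p below 0.05. Requiring a log2 change of 1 or more in size left 2, Ager and Trim72, and a minimum of 1 FPKM kept all 3. With pseudocounts of 0.1 and 1 and with centring on the tested genes, log2 ratios ranged from -1.26 to -0.85 for Ager, 1.05 to 1.17 for Trim72 and 0.53 to 0.73 for Frmd4a, all in the direction of the authors' fold change. Of the 4 changed events, 1, the 23 nt exon of Trim72, was left at a mean of 50 reads and 1, the same exon, with at least 20 reads in every library, so read depth limits the Ager and Frmd4a calls. A difference of 0.2 left 3, without the Ager exon, while a difference of 0.05 and a mean of 10 reads left 4. Leaving out each library in turn gave differences of 0.334 to 0.400 for the Trim72 exon, 0.252 to 0.281 for the Frmd4a exon, 0.117 to 0.134 for the Ager exon and 0.284 to 0.382 for the Ager interval, as values with no test. These events were chosen for their differences. For both Ager events every library of the first set had inclusion 1, so leaving any of those out could not move the difference. Inclusion of the Trim72 exon over all libraries was 0.248 from summed reads and 0.20 as the mean of the library values. With reads summed over libraries, inclusion without division by effective length was 0.218 against 0.156 for the Frmd4a exon and 0.915 against 0.755 for the Ager interval. Related list medians kept their sign with a pseudocount of 1 and with genes of at least 1 FPKM. No paired analysis was possible because the gene table holds no value per library and the splicing tables name no replicate numbers.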
